A study of Mus musculus with 24 samples.

Results

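The genes described here were 33 aminoacyl-tRNA synthetase genes and synthetase scaffold genes, chosen by name from the 38924 genes listed in each file. They comprised 14 cytosolic synthetases that are not linked to dominant neuropathy, 3 scaffolds of the multisynthetase complex (Aimp1, Aimp2 and Eef1e1) and 16 mitochondrial synthetases. All 33 names were found. Ribosome-associated RNA had been pulled down from the spinal cords of mice of 8 weeks by the RiboTag method, in which Cre recombinase switches on an HA-tagged copy of the ribosomal protein Rpl22. The 4 groups of 6 mice were heterozygous Gars C201R with Cre, wild type (WT) with Cre, C201R without Cre and WT without Cre. All 24 mice carried the tagged Rpl22 allele (Rpl+/-) on a mixed B6.Cg and B6.129 background. The mice with Cre were Chat+/- and carried Cre at the gene for choline acetyltransferase (ChAT), so the tag marks every cholinergic cell type of the cord and not motor neurons alone. The mice without Cre were Chat+/+, so their pulldowns are the background measured in the same way. Sex was not given in the labels.

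Aminoacyl-tRNA synthetases load each tRNA with its amino acid before the tRNA enters the ribosome. Most amino acids have one nuclear gene for the cytosolic enzyme and another, with a name ending in 2, for the mitochondrial enzyme. Several cytosolic enzymes are held together with 3 scaffold proteins in the multisynthetase complex. Gars, the gene mutated in these mice, encodes glycyl-tRNA synthetase, and dominant mutations of it and of several other cytosolic synthetases cause peripheral neuropathy. Transcription of many cytosolic synthetase genes is known to be raised by the factor ATF4 in the integrated stress response.

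Library totals ran between 8899000 and 28295000 expected counts. Gm26924, a gene that collects ribosomal RNA-like reads, took 25.4 ± 14.5% of counts in C201R and 13.2 ± 8.78% in WT pulldowns with Cre (SD, n = 6 each). Mouse 14003-1 (C201R) and mouse 14701-9 (WT) stood apart among the pulldowns with Cre, with the highest mitochondrial share of counts in their groups, 15.8% and 17.1%. With Cre, all 9 cholinergic markers found in the files were higher than without Cre in C201R (median log2 fold change 4.86) and in WT (3.42). Of the same 9 markers, 3 were called lower in C201R than in WT with Cre (Ahnak2, Chodl and Calcb, log2 fold changes -0.85, -1.02 and -0.88) and 0 higher. In that comparison 1.82% of all genes tested were called lower. The 9 markers did not share a direction, with 5 of 9 values above 0 and a median log2 fold change of 0.12. Their summed level nevertheless had the lower median in C201R, as given with the other markers below. Without Cre, all 8 cholinergic markers tested had log2 fold changes below 0 for C201R against WT, with a median of -1.04 and 0 called. The larger values with Cre over without Cre in C201R thus also rest on lower background pulldowns. In pulldowns from tissue, fewer cells of a type and less RNA per cell cannot be told apart.

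The cytosolic enzymes were the more abundant class in pulldowns with Cre and also in those without Cre. Levels of different genes are compared in TPM, a measure divided by transcript length and by the library's sum. Mitochondrial transcripts, Gm26924 and Lars2 took a median of 31.1% of TPM in C201R and 15.5% in WT pulldowns with Cre. TPM values of the genotypes are therefore not read as a genotype change here. The median of the 14 cytosolic median levels was 26.0 TPM in C201R and 23.03 TPM in WT pulldowns with Cre. Leaving out Lars2, the corresponding value of the 15 mitochondrial enzymes was 1.93 TPM in C201R and 3.61 TPM in WT. Without Cre the cytosolic value was 7.52 TPM in C201R and 7.33 TPM in WT. The mitochondrial value without Cre was 1.455 TPM in C201R and 1.19 TPM in WT. The levels that follow are those with Cre. Nars, the asparaginyl enzyme, stood first among the cytosolic genes, with a median of 553 TPM in C201R and 523 TPM in WT. Vars, the valyl enzyme, stood last among them, with 6.06 TPM in C201R and 7.48 TPM in WT. Iars2, the mitochondrial isoleucyl enzyme, led the mitochondrial genes at 22.96 TPM in C201R and 26.0 TPM in WT, and Pars2, the mitochondrial prolyl enzyme, was lowest at 0.68 TPM in C201R and 0.90 TPM in WT. Nars lay above every other cytosolic gene, and below it the ranges of neighbouring genes overlapped, as the plot of TPM by library shows. The 3 scaffolds lay between 13.3 TPM (Aimp2) and 51.6 TPM (Aimp1) in C201R, and between 14.9 and 44.4 TPM for the same genes in WT.

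**Figure D1:**
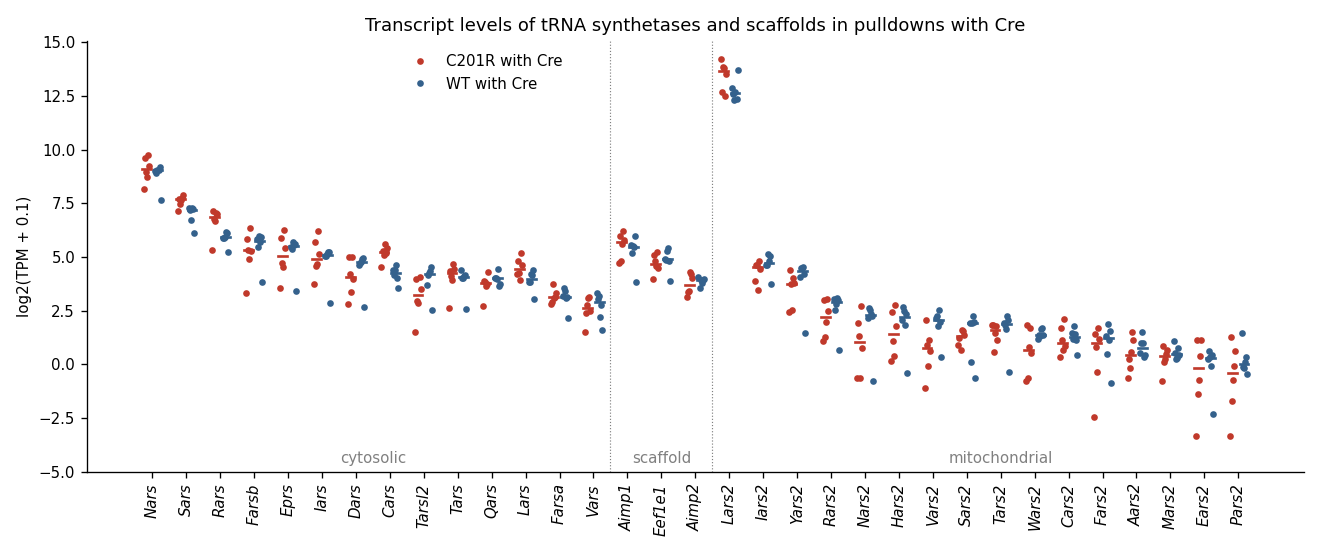
Level of each of the 33 genes as log2(TPM + 0.1) in the 6 C201R and the 6 WT pulldowns with Cre, with a line at each group's median, ordered within class by the WT median. Nars leads the cytosolic enzymes, most mitochondrial enzymes lie below all cytosolic medians, and Lars2 stands above every other gene.

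Of the 14 cytosolic synthetases, 8 were called higher in C201R than in WT pulldowns with Cre and 6 were not called, and no mitochondrial synthetase was called. Of the 17 cytosolic and scaffold genes, 9 passed an adjusted p of 0.05 as higher and 0 as lower (edgeR's quasi-likelihood test, Benjamini-Hochberg adjustment over 14634 genes). Among all genes tested, 2.29% were called higher and 1.82% lower. The median log2 fold change of the 17 was 0.58, and 16 of the 17 values were above 0. Over all genes tested the median was -0.01. Of the 16 mitochondrial enzymes 0 were called in either direction (4.11% of all genes were), and without Lars2 their values ran between -0.61 and 0.50 with a median of 0.15. The mitochondrial genes had fewer reads, and the median standard error of their log2 fold changes was 0.34, against 0.16 for the cytosolic genes. No test of the difference between the classes was made.

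The scaling between libraries bears on these values. Scaled by library totals alone, which include Gm26924, the median of all genes moved to -0.26, the median of the 17 cytosolic and scaffold genes stood at 0.27 and 0 of them were called. On TPM as deposited, 7 of the 17 cytosolic and scaffold genes had the higher median in C201R, and 7 of the 9 called genes did, the exceptions being Eprs and Iars. After rescaling TPM without mitochondrial transcripts, Gm26924 and Lars2, 8 of the 9 did, with Eprs the exception. Within library series 1 (3 C201R and 2 WT mice) the 17 genes had a median log2 fold change of 0.86 and 0 were called. Within series 2 (3 C201R and 4 WT mice) the median was 0.44 and 9 were called. With the Gm26924 share in the fit 4 of the 17 were called and the median was 0.59. Taking the mouse number prefix as a block left 2 calls, Rars and Cars, and the fit on all 24 libraries left 5. Without C201R mouse 14703-4, 5 were called and the median was 0.51. Series are the 2 runs of library numbers, whose meaning is not stated.

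**Figure D2:**
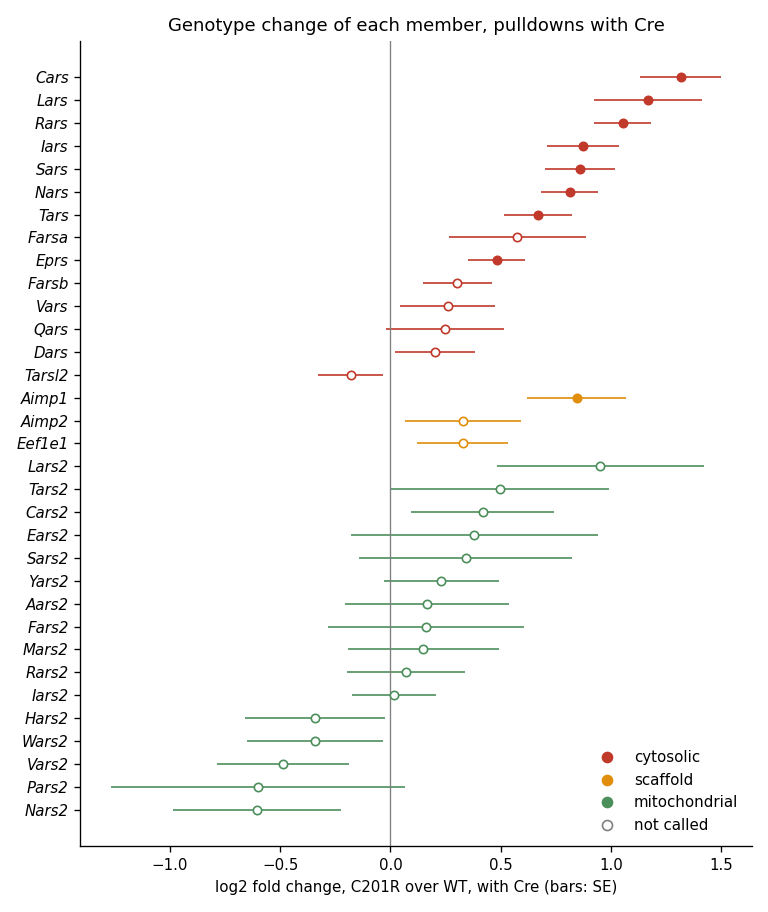
Log2 fold change of each gene, C201R over WT with Cre, with its standard error, grouped as cytosolic, scaffold and mitochondrial. Filled points passed an adjusted p of 0.05: 8 of 14 cytosolic, 1 of 3 scaffold and 0 of 16 mitochondrial genes.

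Among the 6 cytosolic enzymes that belong to the multisynthetase complex, 4 were called higher (Rars, Lars, Iars and Eprs) and Dars and Qars were not. Values in single mice are given in CPM, the count relative to the library total scaled by TMM (trimmed mean of M values). Rars, the arginyl enzyme, had between 71.6 and 105 CPM in C201R mice (median 87.3), against between 38.0 and 46.5 CPM in WT mice (median 41.7). All 6 C201R mice lay above all 6 WT mice, and the log2 fold change was 1.05 ± 0.13 (SE; adjusted p = 3.6e-04, edgeR). Lars, the leucyl enzyme, had between 48.0 and 151 CPM in C201R mice (median 59.1), against between 24.1 and 36.6 CPM in WT mice (median 29.1). The groups did not overlap, and mouse 14003-1 alone gave the C201R maximum, with the other 5 C201R mice at or below 59.5 CPM. Its log2 fold change was 1.17 ± 0.24 (adjusted p = 0.016, edgeR).

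Iars, the isoleucyl enzyme, had between 85.2 and 130 CPM in C201R mice (median 107), against between 35.2 and 70.8 CPM in WT mice (median 64.0). The groups again did not overlap, and the log2 fold change was 0.87 ± 0.16 (adjusted p = 0.0087, edgeR). Eprs, which loads both glutamate and proline, had between 103.5 and 147 CPM in C201R mice (median 126), against between 59.9 and 104.4 CPM in WT mice (median 98.5). Here the ranges overlapped, and the change of 0.48 ± 0.13 was the smallest called one (adjusted p = 0.048, edgeR). The Eprs call was lost in 9 of the 12 fits that left out 1 mouse. Dars, the aspartyl enzyme, had between 21.01 and 32.1 CPM in C201R mice and between 15.5 and 28.1 CPM in WT mice. Its log2 fold change was 0.20 ± 0.18 (adjusted p = 0.61, edgeR), with a 95% interval between -0.16 and 0.56. Qars, the glutaminyl enzyme, had a value of 0.25 ± 0.27.

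Outside the complex, 4 of 8 cytosolic enzymes were called higher (Cars, Sars, Nars and Tars). Cars, the cysteinyl enzyme, showed the highest fold change of all 33 genes. It had between 35.4 and 71.7 CPM in C201R mice (median 50.5), against between 16.8 and 25.8 CPM in WT mice (median 17.9), with no overlap. The log2 fold change was 1.32 ± 0.18 (adjusted p = 9.8e-04, edgeR). Nars had between 879 and 1613 CPM in C201R mice (median 1020), against between 557 and 641 CPM in WT mice (median 594). All C201R mice lay above all WT mice, and the log2 fold change was 0.81 ± 0.13 (adjusted p = 0.0028, edgeR). Sars, the seryl enzyme, had between 122 and 257 CPM in C201R mice (median 162), against between 76.1 and 98.7 CPM in WT mice (median 92.1). It too separated the groups, with a log2 fold change of 0.86 ± 0.16 (adjusted p = 0.0087, edgeR).

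In all, 6 of the 14 cytosolic genes had every C201R mouse above every WT mouse with Cre, namely Cars, Rars, Lars, Nars, Iars and Sars. Among all genes tested 1.72% did so, and 1.34% had every C201R mouse below. None of the 3 scaffolds and none of the 16 mitochondrial genes separated the groups in either direction. The other uncalled cytosolic enzymes were Farsa, Farsb, Vars and Tarsl2. Farsa and Farsb encode the alpha and beta subunits of phenylalanyl-tRNA synthetase. Farsb, the more abundant subunit transcript, had between 44.4 and 67.3 CPM in C201R mice and between 34.2 and 52.9 CPM in WT mice, and its log2 fold change was 0.30 ± 0.16 (adjusted p = 0.32, edgeR). Farsa had a value of 0.58 ± 0.31 and Vars one of 0.26 ± 0.22.

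**Figure D3:**
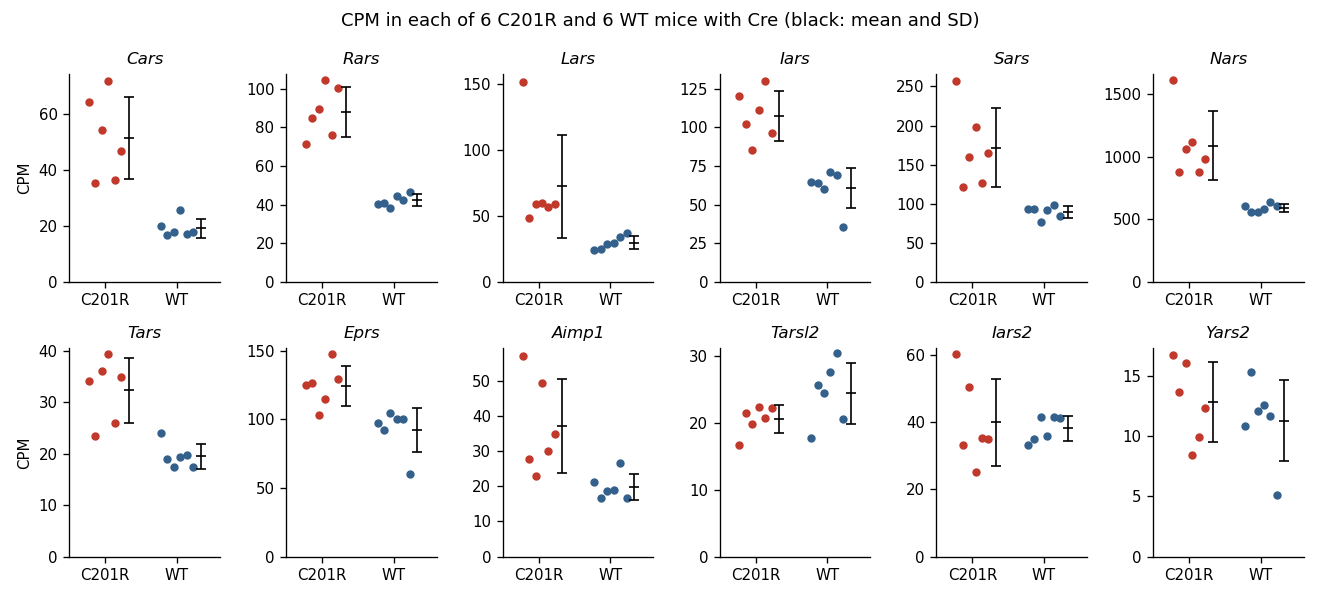
CPM in each C201R and each WT mouse with Cre for the 9 called genes and for Tarsl2, Iars2 and Yars2, on axes that start at 0, with the mean and SD of each group in black. Cars, Rars, Lars, Iars, Sars and Nars show no overlap between the genotypes, whereas Tarsl2, Iars2 and Yars2 overlap.

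The close gene pair Tars and Tarsl2, both of which encode cytosolic threonyl enzymes, gave values on opposite sides of 0. Tars had between 23.4 and 39.3 CPM in C201R mice (median 34.5), against between 17.4 and 24.01 CPM in WT mice (median 19.2). Only the lowest C201R mouse fell within the WT range, and the log2 fold change was 0.67 ± 0.15 (adjusted p = 0.025, edgeR). Its call was lost in 6 of the 12 fits that left out 1 mouse. Tarsl2 had between 16.7 and 22.4 CPM in C201R mice (median 21.2), against between 17.8 and 30.5 CPM in WT mice (median 25.1). Its log2 fold change was -0.18 ± 0.15 (adjusted p = 0.57, edgeR), with a 95% interval between -0.47 and 0.11. The log2 ratio of Tars over Tarsl2 on TPM, a pair picked after its values were seen, had a median of 1.00 in C201R and -0.17 in WT pulldowns with Cre, and 4 of 6 C201R mice lay above every WT mouse. RSEM divides reads between similar transcripts, so the share of each gene is uncertain.

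Promoter sequences were at hand for 26 of the 33 genes in a RefSeq table (build GRCm38.p6, from 250 bases before to 50 bases after a start site listed in the table; that of Eprs lies inside the gene, and Aimp1 has 2 entries). They were searched on both strands for TGATGCAA, a spelling of the C/EBP-ATF element that ATF4 is known to bind. Other spellings of the element and other motifs were not searched. The letters occurred in 2 of the 5 called genes with an entry, Iars and Tars, and in 0 of the 21 uncalled genes with an entry. They were held by 1.03% of the 27025 genes in the table, and by 0.895% of all 32851 promoters of this length. The called genes Rars, Cars, Lars and Nars had no entry. The windows of Tars, Tarsl2 and Iars are shown because they hold the match, or stand beside it in the paralogous gene without a match. Each is written in the direction of its gene, with the match, read here as its reverse complement, in capitals. The Tars window is chr15:11399659-11399758 (minus strand), the 100 bases before the start, with the match at positions -15 to -8. The Tarsl2 window is chr7:65644798-65644897 (plus strand), again the 100 bases before the start. It holds tgatgcac, which differs from the searched letters in the last base only and was not counted as a match. The Iars window is chr13:49682130-49682159 (plus strand), the first 30 bases from the start, with the match at positions 8 to 15.
Tars: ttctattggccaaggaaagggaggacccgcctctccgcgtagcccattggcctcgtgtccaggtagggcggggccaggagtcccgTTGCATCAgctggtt
Tarsl2: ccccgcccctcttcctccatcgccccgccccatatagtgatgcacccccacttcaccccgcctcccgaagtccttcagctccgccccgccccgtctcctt
Iars: gtcagtaTTGCATCAcctccagacgcggaa

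A match is a description of these letters, and binding was not measured. GC content of the 100-base windows was 63.0% for Tars and 69.0% for Tarsl2.

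The scaffold proteins hold the complex together. Aimp1 had between 23.04 and 57.2 CPM in C201R mice (median 32.5), against between 16.6 and 26.5 CPM in WT mice (median 18.8). The ranges overlapped, and the log2 fold change was 0.84 ± 0.22 (adjusted p = 0.047, edgeR). The call was lost in 10 of the 12 fits that left out 1 mouse. Aimp2 had between 4.58 and 19.4 CPM in C201R mice and between 5.40 and 14.9 CPM in WT mice, with a log2 fold change of 0.33 ± 0.26 (adjusted p = 0.55, edgeR). Eef1e1, also known as Aimp3, had between 12.9 and 31.4 CPM in C201R mice and between 10.8 and 16.6 CPM in WT mice, with 0.33 ± 0.21 (adjusted p = 0.43, edgeR). The upper 95% bounds were 0.85 for Aimp2 and 0.73 for Eef1e1.

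Mitochondrial synthetases load tRNAs inside the mitochondrion for translation of the mitochondrial genome. Iars2 had between 25.3 and 60.2 CPM in C201R mice (median 35.2), against between 33.2 and 41.7 CPM in WT mice (median 38.7). The WT range lay within the C201R range, and the log2 fold change was 0.02 ± 0.19 (adjusted p = 0.97, edgeR), with a 95% interval between -0.36 and 0.39. Yars2, the mitochondrial tyrosyl enzyme, had between 8.41 and 16.7 CPM in C201R mice and between 5.13 and 15.4 CPM in WT mice, and its log2 fold change was 0.23 ± 0.26 (adjusted p = 0.69, edgeR). The signs of both depended on the fit. Nars2 and Pars2 had the lowest values (-0.61 and -0.60) and Tars2 the highest (0.50). For Ears2 and Pars2, 1 C201R library held 0 counts, that of mouse 14003-1.

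Lars2, the mitochondrial leucyl enzyme by name, is set apart because the gene collects ribosomal RNA-like reads. It stood at a median of 12900 TPM in C201R and 6359 TPM in WT pulldowns with Cre. Its counts were a nearly fixed share of those of Gm26924, between 0.111 and 0.157 per Gm26924 count in C201R mice and between 0.122 and 0.148 in WT mice with Cre. Without Cre the ratio was between 0.123 and 0.150 in C201R and between 0.122 and 0.160 in WT mice. The log2 fold change between genotypes with Cre was 0.95 ± 0.47 (adjusted p = 0.31, edgeR), and -0.12 once the share of Gm26924 entered the fit. The Lars2 mRNA and ribosomal RNA-like reads cannot be told apart in these values.

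The genes were also summarised within each mouse. The median deviation of the 17 genes from their WT medians, on the log2(CPM + 0.5) scale, lay between 0.27 and 1.06 in the 6 C201R mice with Cre and between -0.08 and 0.10 in the 6 WT mice with Cre, which are near 0 by construction. Of the C201R mice, 14003-1, 14003-4 and 14701-5 had medians of 1.06, 0.94 and 0.53 and Gm26924 shares of 43.3%, 36.9% and 32.9%. Mice 14703-4, 14004-2 and 14004-5 had lower Gm26924 shares (20.9%, 10.5% and 8.01%) and medians of 0.59, 0.27 and 0.43. WT mouse 14701-9, with a share of 30.8%, had a median of -0.001. The part of the Gm26924 share in these medians was not tested. The same median over the 15 mitochondrial genes lay between -0.42 and 0.15 in C201R mice and between -0.50 and 0.07 in WT mice. Without Cre the cytosolic and scaffold medians overlapped, between -0.36 and 0.25 in C201R mice and between -0.26 and 0.07 in WT mice.

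The markers of other cells were set beside these differences in pulldowns with Cre, by their summed CPM scaled over all 24 libraries. The 6 blood markers summed to between 22.7 and 492 CPM in C201R mice (median 168) and between 26.7 and 184 CPM in WT mice (median 47.1). The 8 markers of other neurons summed to between 174 and 381 CPM in C201R mice (median 241) and between 146 and 240 CPM in WT mice (median 166), so that the C201R median lay above the highest WT mouse. The 9 cholinergic markers summed to between 1178 and 1830 CPM in C201R mice (median 1651) and between 1398 and 2495 CPM in WT mice (median 2274). The 8 astrocyte markers (496 to 605 CPM in C201R mice, 511 to 820 CPM in WT mice) and the 8 oligodendrocyte markers (570 to 835 CPM in C201R mice, 501 to 1105 CPM in WT mice) had ranges that overlapped. So did those of 6 endothelial markers (7.07 to 32.3 CPM in C201R mice, 7.00 to 33.1 CPM in WT mice) and of 8 microglia markers (17.3 to 33.9 CPM with a median of 24.3 in C201R mice, 11.9 to 27.2 CPM with a median of 16.3 in WT mice). No marker was at 0 in all libraries of a group, and 0 markers of these other cells were called between genotypes, with 4 of the 8 microglia markers tested. The part of these markers in the synthetase result was not tested. Without mice 14003-1 and 14701-9, 9 of the 17 cytosolic and scaffold genes were again called higher, with a median log2 fold change of 0.51.

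A ratio of the cytosolic to the mitochondrial enzyme for the same amino acid, taken within a library, does not depend on the scaling between libraries. For all 11 pairs without Lars2 the median log2 TPM ratio with Cre was higher in C201R than in WT, by between 0.03 and 1.34. Eprs and Fars2 each stand in more than 1 pair, so the pairs are not independent. A ratio also moves with its mitochondrial enzyme. On counts, Nars2 and Vars2 had uncalled log2 fold changes of -0.61 and -0.49, while 10 of the 15 mitochondrial values were above 0. On TPM, which the ratios use, all 15 mitochondrial medians with Cre were lower in C201R. Examples are Nars2 (2.00 TPM in C201R, 4.78 TPM in WT) and Vars2 (1.62 TPM in C201R, 4.075 TPM in WT). After rescaling TPM without mitochondrial transcripts, Gm26924 and Lars2, Fars2 alone was higher in C201R. The part of these lower medians in the ratio differences was not tested. In none of the 11 pairs were the genotypes free of overlap. The largest differences were those of Nars over Nars2, with a median of 8.15 in C201R and 6.80 in WT, and of Rars over Rars2, with 4.44 in C201R and 3.12 in WT. In each of these pairs only 2 of 6 C201R mice lay above every WT mouse. Cars over Cars2 had a median of 4.18 in C201R and 3.02 in WT, and 5 of 6 C201R mice lay above every WT mouse. The same count held for Vars over Vars2, with 1.98 in C201R and 1.00 in WT, although Vars itself had the lower TPM median in C201R. Sars over Sars2 had 6.42 in C201R and 5.35 in WT, but 2 WT mice lay above every C201R mouse. Eprs over Ears2, Eprs over Pars2 and Farsb over Fars2 differed by 0.12, 0.05 and 0.03, and for each of these 3 leaving out 1 mouse could turn the sign. Without Cre the ratio was higher in C201R for 3 of the 11 pairs, and the median difference was -0.90.

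**Figure D4:**
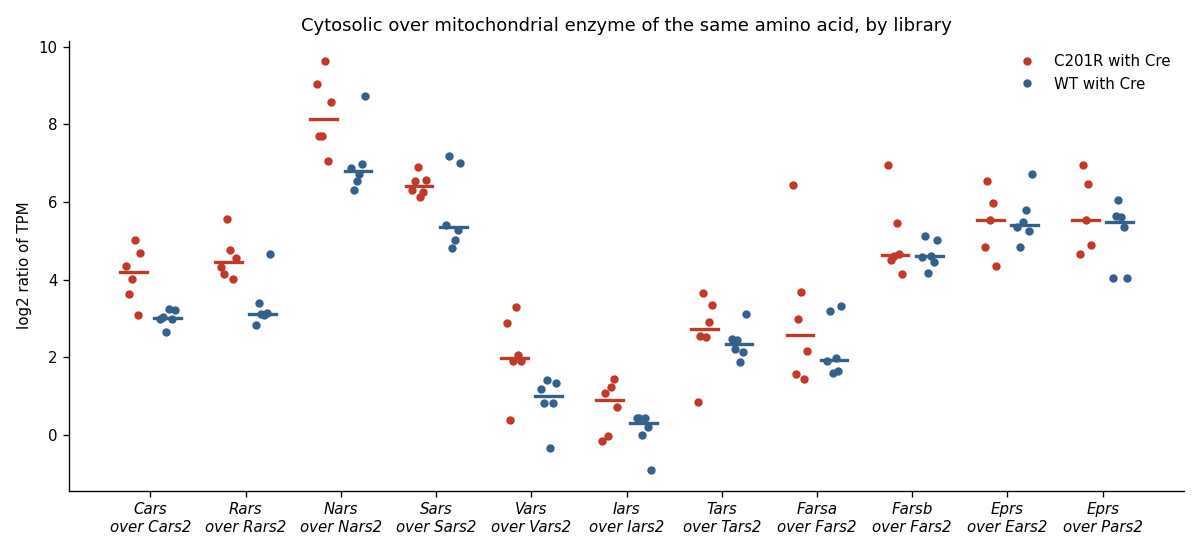
Log2 ratio of TPM of the cytosolic over the mitochondrial enzyme for the same amino acid in each C201R and each WT pulldown with Cre, with a line at each group's median; libraries with 0 TPM for the mitochondrial enzyme are left out. All 11 C201R medians are above the WT medians, by 0.03 to 1.34, and every pair overlaps.

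Without Cre, C201R and WT pulldowns gave no called gene among the 33, nor among all 14400 genes tested (0%, edgeR; 455 genes had an unadjusted p under 0.05, DESeq2 called 2 and limma-voom 1). Aimp2 and Pars2 were filtered out for low counts, which left 31. The 16 cytosolic and scaffold genes tested had a median log2 fold change of -0.10, with 4 of 16 above 0. The 14 mitochondrial genes without Lars2 had a median of -0.23. Rars, called with Cre, had between 8.50 and 12.1 CPM in C201R mice and between 8.89 and 16.7 CPM in WT mice without Cre, with a value of -0.25 ± 0.24. Cars had between 5.43 and 13.1 CPM in C201R mice and between 3.90 and 13.4 CPM in WT mice, with 0.44 ± 0.33. Standard errors were larger here, with a median of 0.29 for the cytosolic genes.

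The difference between the genotype change with Cre and that without Cre was tested as an interaction over all 24 libraries. Only 21 of 16109 genes were called (0.130%; 0.0993% higher and 0.0310% lower), and 1 of the 33 was among them. Rars had an interaction of 1.30 ± 0.24 on the log2 scale (adjusted p = 0.012, edgeR). The other values closest to a call were those of Lars (1.54 ± 0.36, adjusted p = 0.089, edgeR) and Nars (0.92 ± 0.26, adjusted p = 0.19, edgeR). Over the 17 cytosolic and scaffold genes the median interaction was 0.84, with 15 of 17 above 0, and over the 15 mitochondrial genes without Lars2 it was 0.17. The Rars call was lost without C201R mouse 14703-4, and a further gene passed without WT mouse 14702-4. For the 8 other genes called with Cre, a difference in genotype change between the pulldowns was not shown. The 9 cholinergic markers had a median interaction of 0.595, with 8 of 9 above 0 and 0 called. The part of the pulldowns without Cre in these interaction values was not tested.

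The pulldowns with Cre were set against those without it to see which transcripts were enriched in tagged ribosomes. In C201R mice 15 of the 17 cytosolic and scaffold genes were higher with Cre, all but Qars and Farsa, with a median log2 fold change of 1.84. Among all 14335 genes tested 30.5% were higher and 26.3% lower. In WT mice 11 of 17 were higher, with a median of 0.98, and Iars, Lars, Qars, Farsa, Tars and Vars were not called. There 27.7% of 14264 genes were higher and 32.8% lower. These 2 comparisons use the same libraries as those between the genotypes.

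Nars was the most enriched of the cytosolic enzymes in both genotypes. On a scaling over all 24 libraries it had between 727 and 1280 CPM with Cre, against between 97.4 and 157 CPM without Cre, in C201R mice, a log2 fold change of 2.83 ± 0.21 (adjusted p = 1.2e-08, edgeR). In WT mice it had between 465 and 541 CPM with Cre, against between 87.5 and 185 CPM without Cre, and the fold change was 1.82 ± 0.16 (adjusted p = 1.7e-07, edgeR). Aimp2, higher with Cre in both genotypes, had 2.40 ± 0.45 in C201R and 2.59 ± 0.47 in WT. Rars had 2.65 ± 0.19 in C201R and 1.12 ± 0.18 in WT. Lars had 2.28 ± 0.29 in C201R, and its value in WT, 0.53 ± 0.24, missed the threshold (adjusted p = 0.064, edgeR). Tarsl2 had 1.08 ± 0.27 in C201R and 1.35 ± 0.21 in WT.

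Few mitochondrial enzymes were enriched with Cre. In C201R mice Yars2 was higher (1.25 ± 0.35), Nars2 and Wars2, the asparaginyl and tryptophanyl enzymes, were lower (-1.48 ± 0.44 and -1.04 ± 0.43), and the remaining called gene was Lars2 (1.87 ± 0.38). The median of the 14 tested without Lars2 was 0.15. In WT mice Ears2 and Vars2, the glutamyl and valyl enzymes, were lower (-1.94 ± 0.49 and -0.81 ± 0.33), 0 were higher, and the median was -0.33. Scaled by library totals alone, the median of all genes moved to 0.64 in C201R and 0.84 in WT, against 0.07 and -0.10 with TMM. With that scaling the 2 lower calls in WT were lost and 5 other mitochondrial genes were called.

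**Figure D5:**
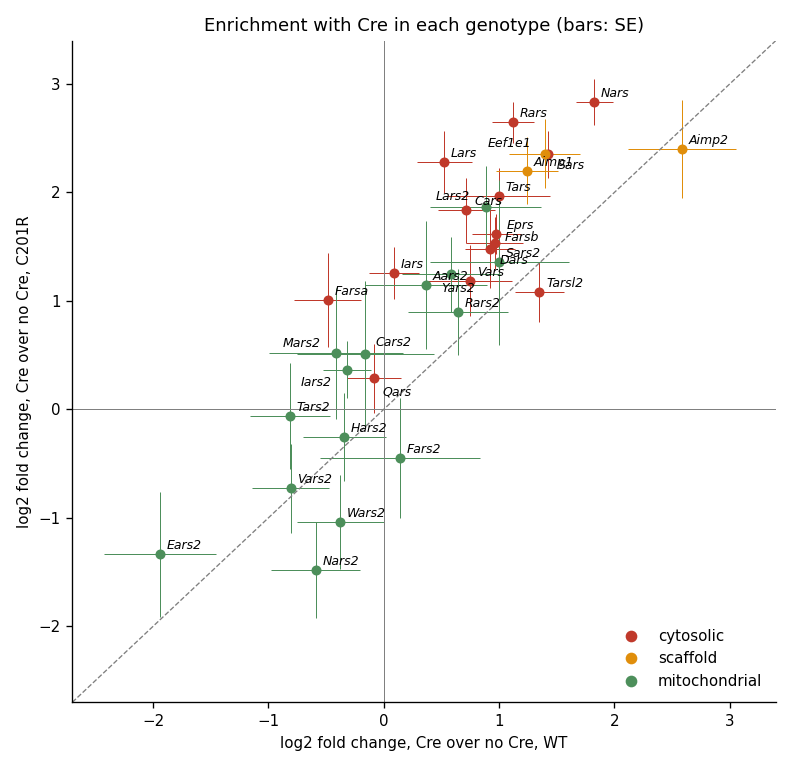
Log2 fold change with Cre over without Cre in C201R (vertical) against the same in WT (horizontal) for the 32 genes tested in both, with standard errors and a dashed line of equality. Nars and Rars lie high in C201R (2.83 and 2.65), and among the cytosolic and scaffold genes Tarsl2 and Aimp2 lie below the line and the other 15 above it.

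Other genes of the charging pathway gave these counts for C201R against WT with Cre, where 2.29% of all genes tested were called higher. Of the 7 synthetases listed as linked to neuropathy, 4 were called higher and 0 lower, with a median log2 fold change of 0.67. Of these, Wars (tryptophanyl) changed by 1.19 ± 0.12, Gars by 0.80 ± 0.12 and Aars (alanyl) by 0.88 ± 0.18. Of 5 genes that deliver charged tRNA to the ribosome, 2 were called higher, Eef1a1 (1.06 ± 0.13) and Eef1b2 (0.57 ± 0.15), the elongation factor and a subunit of its exchange factor. Of 10 genes of tRNA handling, 1 was called higher, Ptrh2 (1.31 ± 0.33), a peptidyl-tRNA hydrolase. Of 12 mitochondrial translation genes, 0 were called and the median was 0.17. Of 76 mitochondrial ribosomal protein genes, 2 were called higher, Mrps33 (0.61 ± 0.14) and Mrpl24 (0.60 ± 0.14), a share near that of all genes, and the median was 0.21.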

How the data were processed

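The study sequenced ribosome pulldowns from 24 spinal cords, 6 in each of 4 groups. The deposited files held expected counts and TPM per gene, which the authors made with RSEM 1.2.12 and Bowtie2 2.2.0, according to the submitters' processing notes. The build and gene annotation behind the counts are not given in the sources used here. Expected counts were rounded to whole numbers. Pairs of groups were fitted on their own 12 libraries and the interaction on all 24, after filterByExpr and TMM, with edgeR 4.0.16 (R 4.3.3, limma 3.58.1). Genes were tested by the quasi-likelihood F test in its robust form. Library series (2 runs of library numbers, of 7 and 17 libraries) was a covariate. Called genes have an adjusted p under 0.05 (Benjamini-Hochberg, over all genes tested). Standard errors are the size of the log2 fold change over the square root of F, and 95% intervals take 1.96 of them either side. CPM is scaled within the fit it stands beside unless stated. TPM and ratios of TPM were described without a test. Scripts were tested on simulated counts with 200 changed genes, drawn from those with a mean above 2 CPM. No series effect and no outlying libraries were simulated. The shares that follow do not cover genes below that level, such as Pars2 and Fars2. The genotype fit with Cre called 41% of 2-fold and 87% of 4-fold changes, and 5.9% of its calls were wrong. The interaction fit called 8% and 51% of them, with 3.3% wrong. Changes near 2-fold can thus be missed, above all in the interaction. Each mouse gave 1 library, and no pair of libraries of the same group agreed within sampling noise. Depth limits the genes at a few counts per library.

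The members and gene lists were chosen with earlier results of these data known. Single values are given for called members, the 2 most abundant uncalled members of each class, Tarsl2 and Lars2, and in other lists for up to 3 called genes with the smallest p; further members are named to account for the counts. Alternatives were RLE scaling, library totals, DESeq2 1.42.0, limma-voom, other filters (none, or at least 1 CPM in at least 6 libraries), added covariates, fewer libraries, and each library left out in turn. The fit within library series 1 and the ratio of Tars over Tarsl2 were added after the data were seen.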

Additional observations from a re-analysis of the deposited data

Results flagged for a closer look

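In 132 sets of 6 mice (33 genes in 4 groups), 20 had a highest or lowest mouse far from the other 5 by Dixon's criterion of 0.625; chance gives about 1 in 20 sets. Mouse 14003-1 (C201R with Cre) was the highest in 5 of them, with 151 CPM for Lars, 30.5 CPM for Qars, 1613 CPM for Nars, 20.0 CPM for Tars2 and 158800 CPM for Lars2. Mouse 14701-9 (WT with Cre) accounted for another 5, the lowest for Eprs (59.9 CPM), Iars (35.2 CPM) and Nars2 (1.75 CPM) and the highest for Aimp2 (14.9 CPM) and Lars2 (59420 CPM). These mice have the highest mitochondrial share of counts in their groups, 15.8% and 17.1%, and the part of that share in the values was not tested.

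Among the other pulldowns with Cre, Cars had 25.7 CPM in WT mouse 14703-5 and Tars 24.01 CPM in WT mouse 14002-6, each the highest of its group. In C201R without Cre, the highest values that stood apart were those of Lars (13.2 CPM, mouse 14003-3), Farsa (6.64 CPM, mouse 14004-7), Fars2 (3.62 CPM, mouse 14003-2), Pars2 (1.98 CPM, mouse 14004-8) and Lars2 (12060 CPM, mouse 14003-2). In WT without Cre they were Cars (13.4 CPM) and Rars2 (5.93 CPM), both in mouse 14701-1, and Pars2 was listed at 0 CPM in mouse 14702-6.

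The genotype change of Rars differed between pulldowns with and without Cre, with an interaction of 1.298 on the log2 scale (adjusted p = 0.012, edgeR's quasi-likelihood test). All 6 C201R mice lay above all 6 WT mice with Cre, and the ranges overlapped without Cre.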

How the results depend on the processing

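For C201R against WT with Cre, the count of 9 cytosolic and scaffold genes called higher was 0 with library totals, 2 with a replicate block by mouse number prefix (Rars and Cars), 4 with the Gm26924 share as a covariate (Iars, Rars, Cars and Nars), 5 in the fit on 24 libraries and 0 in library series 1 alone. The main fit did not pair mice by prefix. Same-prefix pairs correlated at between -0.02 and 0.51, and mice 14003-1 and 14701-9, of different prefix, at 0.52. Of 8 mice with a same-prefix mouse of the other genotype, 3 correlated best with one. These correlations do not settle whether mice of a prefix are alike. Leaving out 1 library gave 5 to 9 calls, the 5 without C201R mouse 14703-4. The mitochondrial count was 0 in every fit that left out 1 library. All 9 called genes kept a positive log2 change in all 26 alternatives; Eprs and Aimp1 lost the call in 17 of them each, Tars in 12, and Rars and Cars in 2 each. The 1 interaction call was 0 with library totals, no filter, the replicate block, series 2 alone and the Gm26924 covariate, 2 with limma-voom, 3 with DESeq2, and 0 to 2 on leaving out 1 library. The 4 mitochondrial calls of Cre against no Cre in C201R were 0 with the Gm26924 covariate and 2 to 6 on leaving out 1 library. The 2 such calls in WT were 1 with RLE or no filter, 5 with library totals, 4 with limma-voom or no series term, 0 with the replicate block, and 1 to 3 on leaving out 1 library. On rescaled TPM, 11 rather than 7 of the 17 cytosolic and scaffold genes, and 1 rather than 0 of 15 mitochondrial genes, had a higher median in C201R with Cre. Uncalled values changed sign for Dars (-0.088 with library totals, -0.028 in series 2), Eef1e1 (-0.004 in series 2), Aimp2 (-0.028 with the Gm26924 covariate), Tarsl2 (0.07 in series 1) and Lars2 (-0.12 with that covariate). They did so for Iars2 (-0.26 with library totals, -0.13 with limma-voom, -0.018 with no filter and -0.020 with the replicate block, -0.16 in series 2, -0.15 with the Gm26924 covariate, -0.05 without mice 14003-1 and 14701-9, -0.093 to 0.103 on leaving out 1 library) and Yars2 (-0.10, -0.014, -0.11 and -0.02 with library totals, limma-voom, series 2 and without those mice). The cause of these differences was not tested. Neither of those mice is in the comparison without Cre, so that alternative was not run there.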
